A study of Homo sapiens with 12 samples.

Results

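The 8 nuclear genes of mitochondrial iron use followed here in MCL (mantle cell lymphoma) cells were NFS1, ISCU, GLRX5 and HSCB of iron-sulfur (Fe-S) cluster assembly, the mitochondrial iron importers SLC25A37 and SLC25A28, and ALAS1 and FECH, which open and close heme synthesis. They were taken by name from the table of raw counts, and all 8 of them were among the 18674 of 63677 genes that passed the filter on low counts. JEKO1, JVM2 and MAVER1, which are lines of this lymphoma, were kept for 48 h as control, with 1 of 2 drugs or with both, and RNA-seq gave 1 library per line and treatment. The lines thus serve as the 3 replicates of each treatment. Ironomycin, a small molecule that withholds lysosomal iron from the rest of the cell, was given at 50 nM in JEKO1 and 250 nM in JVM2 and MAVER1. Ibrutinib, an inhibitor of the kinase BTK, was given at 0.5 µM in JEKO1, 1.5 µM in JVM2 and 6.25 µM in MAVER1. JVM2 was also grown with less serum than the other lines, and so line, dose and medium cannot be told apart. All 3 are established lines, and no repeat culture of a line and treatment was sequenced.

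Fe-S clusters are built inside mitochondria. The cysteine desulfurase NFS1 supplies sulfur, ISCU is the scaffold on which the cluster forms, the co-chaperone HSCB helps the chaperone HSPA9 release it, and the glutaredoxin GLRX5 receives it for transfer to client proteins. Mitoferrin 1 (SLC25A37) and mitoferrin 2 (SLC25A28) carry iron across the inner membrane, the former mainly known from erythroid cells. ALAS1 makes the first intermediate of heme in most tissues and is held down by heme itself. FECH inserts iron into protoporphyrin in the last step and itself carries an Fe-S cluster.

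The stretches just upstream of the start of ISCU, FECH, SLC25A28 and ALAS1 are shown, chosen by annotation and not by response. Of the windows used, these lay wholly or mostly outside annotated untranslated exons. They come from RefSeq (GRCh38.p14) and are written 5′ to 3′ on the strand of the gene. Capitals mark matches on either strand to the GC box GGGCGG, the CCAAT box CCAAT and the cyclic AMP response element TGACGTCA. The ISCU stretch is chr12:108562346-108562595 (plus strand), that of FECH chr18:57586773-57586952 (minus strand), that of SLC25A28 chr10:99620440-99620689 (minus strand) and that of ALAS1 chr3:52197833-52198082 (plus strand).
ISCU: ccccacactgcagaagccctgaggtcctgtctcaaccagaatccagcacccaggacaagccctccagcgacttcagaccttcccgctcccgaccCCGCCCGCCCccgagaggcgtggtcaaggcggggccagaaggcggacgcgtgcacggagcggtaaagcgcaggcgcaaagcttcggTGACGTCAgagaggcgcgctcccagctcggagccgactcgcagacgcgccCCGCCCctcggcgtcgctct
FECH: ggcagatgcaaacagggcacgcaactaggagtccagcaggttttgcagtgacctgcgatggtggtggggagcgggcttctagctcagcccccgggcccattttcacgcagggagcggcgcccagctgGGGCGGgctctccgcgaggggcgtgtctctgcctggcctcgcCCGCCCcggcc
SLC25A28: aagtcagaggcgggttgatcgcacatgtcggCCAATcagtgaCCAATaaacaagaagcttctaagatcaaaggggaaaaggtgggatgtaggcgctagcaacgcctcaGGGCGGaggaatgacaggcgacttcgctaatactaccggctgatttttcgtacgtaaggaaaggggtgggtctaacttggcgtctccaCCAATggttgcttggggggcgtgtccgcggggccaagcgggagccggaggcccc
ALAS1: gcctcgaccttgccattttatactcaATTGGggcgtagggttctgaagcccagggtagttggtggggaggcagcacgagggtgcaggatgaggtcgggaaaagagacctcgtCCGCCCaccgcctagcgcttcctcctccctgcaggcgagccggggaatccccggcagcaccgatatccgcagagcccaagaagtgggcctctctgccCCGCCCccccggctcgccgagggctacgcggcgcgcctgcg
ISCU held 3 GC boxes, 2 of them overlapping in part, and 1 cyclic AMP response element. FECH held 2 GC boxes, SLC25A28 had 1 GC box and 3 CCAAT boxes, and ALAS1 had 2 GC boxes and 1 CCAAT box. Among all 35116 promoter windows of 250 bases, 42.6% held a GC box, 32.0% a CCAAT box and 1.65% the cyclic AMP response element. The windows of these 4 genes held no match to the NRF1 motif, the ATF4-CHOP motif TGATGNAA or the E-box CACGTG, which were found in 2.29%, 3.14% and 6.34% of all windows. These are matches of letters, and no binding was measured.

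The libraries held 35448523 to 38630809 counted reads, and their TMM factors ran from 0.914 to 1.19, with the highest factor and the lowest total in JEKO1 with both drugs. CPM denotes the count scaled to library size with TMM factors, and a log2 fold change is the coefficient of edgeR's fit with treatment and line as terms. B cell markers summed to 2030 to 6469 CPM per library, and of these 8 genes only SOX11 in JVM2 was at 0 throughout. The 9 erythroid markers summed to 0.906 to 4.15 CPM, with HBB and GYPB among those at 0 in every library. The 8 T cell and myeloid markers summed to 0.396 to 7.42 CPM, and among them CD2 and MPO were at 0 in JEKO1, CD3D in JVM2, and all 3 in MAVER1. Of the B cell markers 5 were lower and 1, SOX11, was higher with ironomycin in the comparison averaged over ibrutinib status (median log2 fold change -0.41), and their part in the results was not tested. Over all genes 16.3% were called lower and 17.1% higher in that comparison.

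Scaled to exon length, GLRX5 had the highest mean level over the 12 libraries (4.68 ± 0.27 log2 CPM per kilobase, SD, n = 12), followed by ISCU (4.38 ± 0.51), ALAS1 (4.34 ± 0.60), SLC25A28 (4.05 ± 0.25), FECH (3.74 ± 0.21), HSCB (2.38 ± 0.67), SLC25A37 (1.88 ± 0.35) and NFS1 (1.69 ± 0.39). Between FECH and HSCB the libraries did not overlap, since the lowest FECH value was 3.39 and the highest HSCB value 3.25 log2 CPM per kilobase. All other neighbours in this order overlapped. Thus the desulfurase and the co-chaperone stood at lower levels than the scaffold and the glutaredoxin. This held without length scaling too (mean log2 CPM 4.28 and 2.93 against 6.53 and 6.19). Mitoferrin 2 stood above mitoferrin 1 only after scaling, since mean log2 CPM was 4.86 for SLC25A28 and 4.91 for SLC25A37. Their lengths were 1755 and 8147 bases, counted over all annotated exons of a gene, which need not be the length of the RNA present. The other aminolevulinate synthase, the erythroid ALAS2, had 1 to 14 reads per library and was not tested.

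**Figure D1:**
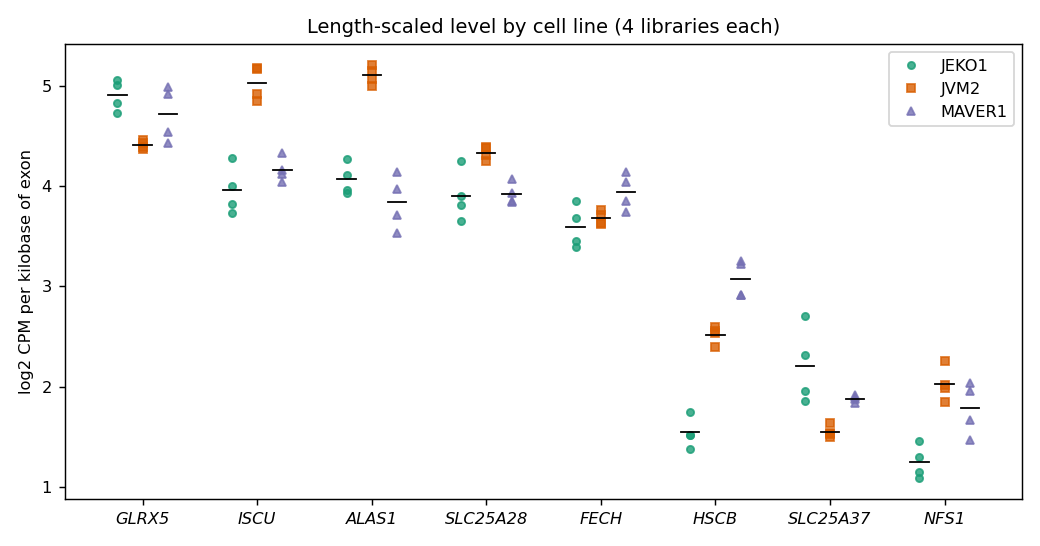
Length-scaled level (log2 CPM per kilobase of exon) of the 8 genes in the 4 libraries of each cell line. Points are libraries, black bars are the means of a line. HSCB had its lowest mean in JEKO1 (1.54) and its highest in MAVER1 (3.08), while ISCU and ALAS1 were highest in JVM2 (5.03 and 5.10).

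All 8 genes differed in level between the lines (quasi-likelihood test of edgeR over both coefficients of line, adjusted p = 1.8e-07 to 0.00286), as did 90% of all genes tested. HSCB had the widest range, with 4.23 ± 0.47 CPM in JEKO1, 8.34 ± 0.49 in JVM2 and 12.3 ± 1.57 in MAVER1 (SD over the 4 treatments, n = 4). The CHEK2 gene on the opposite strand shares 301 of the 1462 exon bases of HSCB, and it was likewise highest in MAVER1, by 1.36 on the log2 scale against JEKO1. Whether the counting used strand is not given in the sources used here, and so the part of CHEK2 reads in HSCB counts was not tested. ISCU stood at 145 ± 16.8 CPM in JVM2, against 69.5 ± 12.1 in JEKO1 and 79.5 ± 6.99 in MAVER1. ALAS1 stood at 87.3 ± 5.56 CPM in JVM2, against 42.7 ± 4.65 and 36.7 ± 6.87. JVM2 thus had the most ISCU and ALAS1 RNA, without overlap with the other lines. NFS1 was lowest in JEKO1 (14.3 ± 1.70 CPM, against 24.6 ± 2.96 in JVM2 and 21.0 ± 3.69 in MAVER1).

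The other members differed less between lines. GLRX5 was lower in JVM2 than in JEKO1 by a log2 difference of -0.49 (standard error, SE, 0.087, adjusted p = 0.000336), and JEKO1 and MAVER1 did not pass the test (-0.18, adjusted p = 0.0857). SLC25A37 was highest in JEKO1 and lowest in JVM2, at 38.6 ± 10.7 and 23.9 ± 0.993 CPM. SLC25A28 was higher in JVM2 than in JEKO1 (log2 difference 0.43, adjusted p = 0.00109), and MAVER1 and JEKO1 stood at 26.6 ± 1.96 and 26.5 ± 4.82 CPM (log2 difference 0.01, SE 0.090). FECH was highest in MAVER1 (69.1 ± 8.49 CPM), while JVM2 and JEKO1 stood at 57.3 ± 2.72 and 54.3 ± 8.01 CPM and did not pass the test (adjusted p = 0.303). Of the pairwise comparisons over all genes, 78.3% were called for JVM2 against JEKO1, 66.4% for MAVER1 against JEKO1 and 71.2% for MAVER1 against JVM2. Without JVM2, 4 of the 8 genes (NFS1, ISCU, HSCB and FECH) differed between the remaining lines, beside 12698 genes of the whole table. The fit with all lines also called SLC25A37 (adjusted p = 0.04) and ALAS1 (0.0413) for MAVER1 against JEKO1. NFS1 was not called without JEKO1 (adjusted p = 0.0552) and FECH was not without MAVER1 (0.363). Over all genes 13105 were called without JEKO1 and 14468 without MAVER1, in place of 16805 with all lines.

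Ironomycin was then compared with its absence, averaged over the libraries with and without ibrutinib. The 2 pairs of libraries of a line count as separate in this test. Its p-values thus do not measure the spread of the ironomycin effect between the 3 lines, and may be too low. NFS1 and GLRX5 fell, ISCU and FECH rose, and ALAS1, HSCB, SLC25A28 and SLC25A37 did not pass the test. Thus 4 of 8 genes were called (50%), 2 in each direction, where 33.4% of all genes tested were called, 17.1% higher and 16.3% lower. All changes were small, from -0.31 to 0.26 on the log2 scale, beside a median of 0.04 over all genes. With library totals in place of TMM the calls were NFS1, ISCU, FECH and SLC25A28 (3 higher), and 69.4% of the calls over all genes were higher in place of 51.1%. Each library pools the RNA of a culture, in which fewer cells of a kind and less RNA per cell cannot be told apart.

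**Figure D2:**
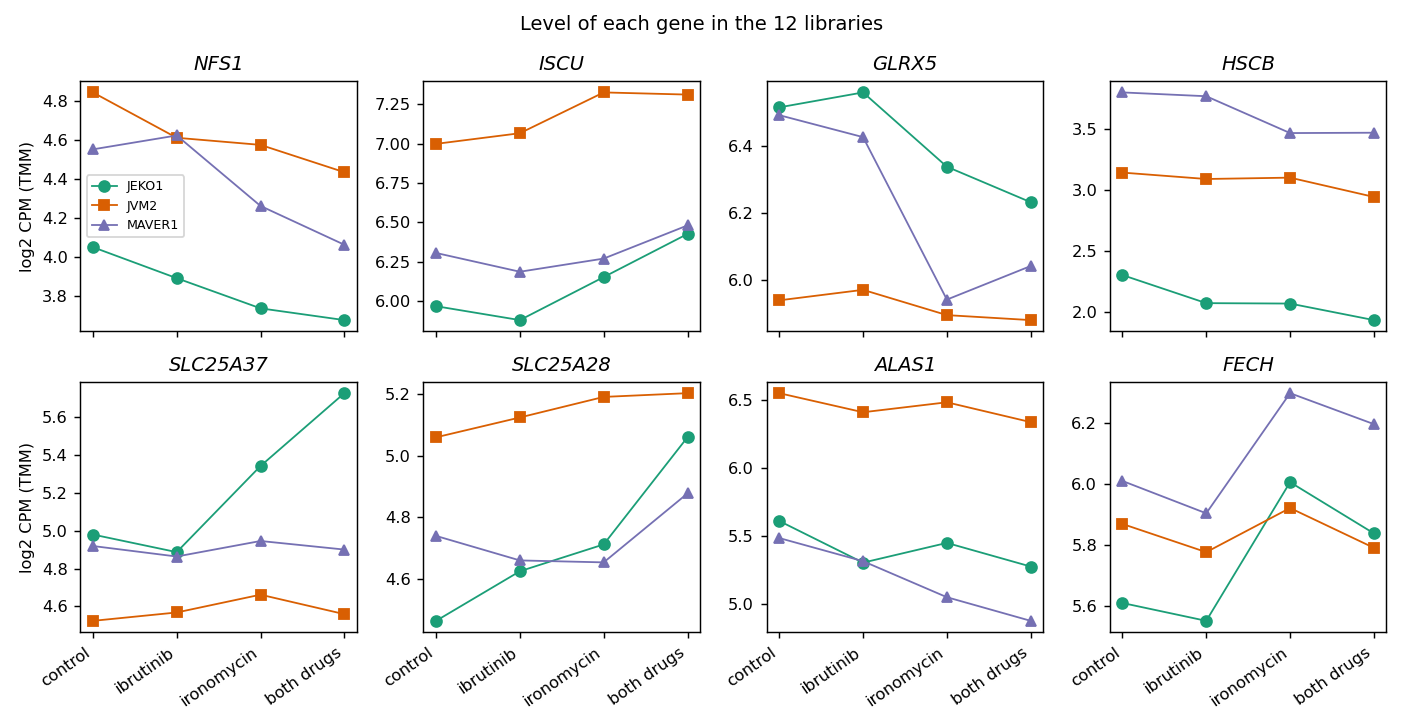
Level (log2 CPM after TMM scaling) of each gene in the 12 libraries, by treatment on the horizontal axis and with 1 line of points per cell line; each panel has its own vertical range. NFS1 and GLRX5 were lower in both ironomycin libraries than in both others within every cell line, and SLC25A37 rose in JEKO1 from 31.5 CPM as control to 52.9 CPM with both drugs.

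NFS1, the sulfur donor, was measured at 16.5 CPM as control, 14.8 with ibrutinib, 13.3 with ironomycin and 12.8 with the pair of drugs in JEKO1. The same order of treatments gave 28.7, 24.4, 23.8 and 21.6 CPM in JVM2 and 23.4, 24.6, 19.1 and 16.7 CPM in MAVER1. Within every line both ironomycin libraries lay below both others. The log2 fold change with ironomycin was -0.31 (SE 0.069, adjusted p = 0.00752), and it was lower in 6 of 6 pairs of libraries, by -0.56 to -0.18. ROMO1, on the opposite strand, shares 88 of the 6024 exon bases of NFS1 and fell too (log2 fold change -0.59, adjusted p = 0.0024). Its part in the NFS1 counts was not tested.

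GLRX5, which takes over the cluster from the scaffold, stood in JEKO1 at 91.5 CPM as control, 94.4 with ibrutinib, 80.9 with ironomycin and 75.1 with both drugs. In JVM2 it stood at 61.3, 62.7, 59.5 and 58.8 CPM, and in MAVER1 at 90.0, 86.0, 61.4 and 65.8 CPM. Again both ironomycin libraries lay below both others in all 3 lines, though narrowly in JVM2. Over all genes 11.1% showed this separation downward and 9.72% upward in all 3 lines, and NFS1 and GLRX5 were the 2 members that did so. The log2 fold change was -0.26 (SE 0.071, adjusted p = 0.0172), with -0.25 in JEKO1, -0.07 in JVM2 and -0.47 in MAVER1 as means of the pairs of each line. Without MAVER1 it was -0.16. SNHG10, on the opposite strand over 391 of 2845 exon bases of GLRX5, did not pass the test (0.11, adjusted p = 0.39). The 3 GLRX5 pseudogenes had at most 5 reads in any library.

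ISCU, the scaffold, moved the other way. It was measured at 62.5 CPM as control, 58.7 with ibrutinib, 71.0 with ironomycin and 85.9 with their combination in JEKO1. In JVM2 it was at 128, 134, 160.5 and 159 CPM, and in MAVER1 at 79.0, 72.7, 77.1 and 89.2 CPM. Both ironomycin libraries lay above both others in JEKO1 and JVM2, while in MAVER1 the library with ironomycin alone lay between control and ibrutinib. The log2 fold change was 0.26 (SE 0.063, adjusted p = 0.0104), and 5 of 6 pairs were higher. NFS1 and ISCU, partners in the first step of cluster assembly, thus changed in opposite directions.

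FECH, the ferrochelatase, also rose. In JEKO1 it stood at 48.8 CPM as control, 46.9 with ibrutinib, 64.2 with ironomycin and 57.2 with both drugs. The values were 58.4, 54.8, 60.6 and 55.3 CPM in JVM2 and 64.4, 59.9, 78.6 and 73.3 CPM in MAVER1. Both ironomycin libraries were above both others in JEKO1 and MAVER1, and in JVM2 the groups overlapped. The log2 fold change was 0.22 (SE 0.063, adjusted p = 0.0208), higher in 6 of 6 pairs, by 0.01 to 0.40. The means of the pairs were 0.34 in JEKO1, 0.03 in JVM2 and 0.29 in MAVER1. Without the filter on low counts FECH was not called (adjusted p = 0.0657).

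ALAS1, at the other end of heme synthesis, was at 48.8 CPM as control, 39.5 with ibrutinib, 43.65 with ironomycin and 38.7 with their combination in JEKO1. It was at 93.7, 85.0, 89.5 and 80.9 CPM in JVM2 and at 44.7, 39.8, 33.1 and 29.3 CPM in MAVER1. The ironomycin libraries were separate from the others in MAVER1 alone. The log2 fold change was -0.20 (SE 0.071, adjusted p = 0.0523), lower in 6 of 6 pairs, with -0.44 in MAVER1 against -0.10 in JEKO1 and -0.07 in JVM2. It was past the threshold without JVM2 (-0.29, adjusted p = 0.0364), with RLE size factors in place of TMM (-0.21, adjusted p = 0.0418) and with DESeq2 (adjusted p = 0.0117). ALAS1 was not called with library totals (-0.115, adjusted p = 0.273) or without the filter on low counts (-0.22, adjusted p = 0.0673). Nor was it called without JEKO1 (-0.25, adjusted p = 0.12) or without MAVER1 (-0.085, adjusted p = 0.449).

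HSCB, the co-chaperone, had the fewest reads of the 8 genes, 159 to 503 per library. It was at 4.87 CPM as control, 4.15 with ibrutinib, 4.14 with ironomycin and 3.76 with their combination in JEKO1, at 8.76, 8.45, 8.51 and 7.63 CPM in JVM2, and at 13.8, 13.5, 11.0 and 11.0 CPM in MAVER1. All 6 pairs were lower with ironomycin, but the log2 fold change of -0.20 (SE 0.082) did not pass the test (adjusted p = 0.0788). CHEK2, which shares exon bases with it, fell (-0.41, adjusted p = 0.00357). For direction alone, 4 of the 8 genes (NFS1, GLRX5, HSCB and ALAS1) were lower in all 6 pairs, where 15.6% of all genes were, and FECH was higher in all 6, where 14.8% were.

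The mitoferrins had higher values in 5 of 6 pairs each and neither was called. SLC25A37 was at 31.5 CPM as control, 29.5 with ibrutinib, 40.5 with ironomycin and 52.9 with their combination in JEKO1. In JVM2 it was at 22.9, 23.7, 25.3 and 23.5 CPM, and in MAVER1 at 30.2, 29.1, 30.8 and 29.8 CPM. The increase was seen in JEKO1, with pair differences of 0.36 and 0.84 on the log2 scale, while those of the other lines ran from -0.01 to 0.14. The fitted log2 fold change of 0.24 (SE 0.11, adjusted p = 0.111) was 0.05 without JEKO1. SLC25A28 was at 22.0, 24.6, 26.2 and 33.3 CPM in JEKO1, at 33.3, 34.8, 36.4 and 36.8 CPM in JVM2, and at 26.7, 25.2, 25.1 and 29.3 CPM in MAVER1, in the order control, ibrutinib, ironomycin and both drugs. Its highest value in each line was with both drugs, and its log2 fold change was 0.17 (SE 0.073, adjusted p = 0.0945), or 0.08 without JEKO1.

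**Figure D3:**
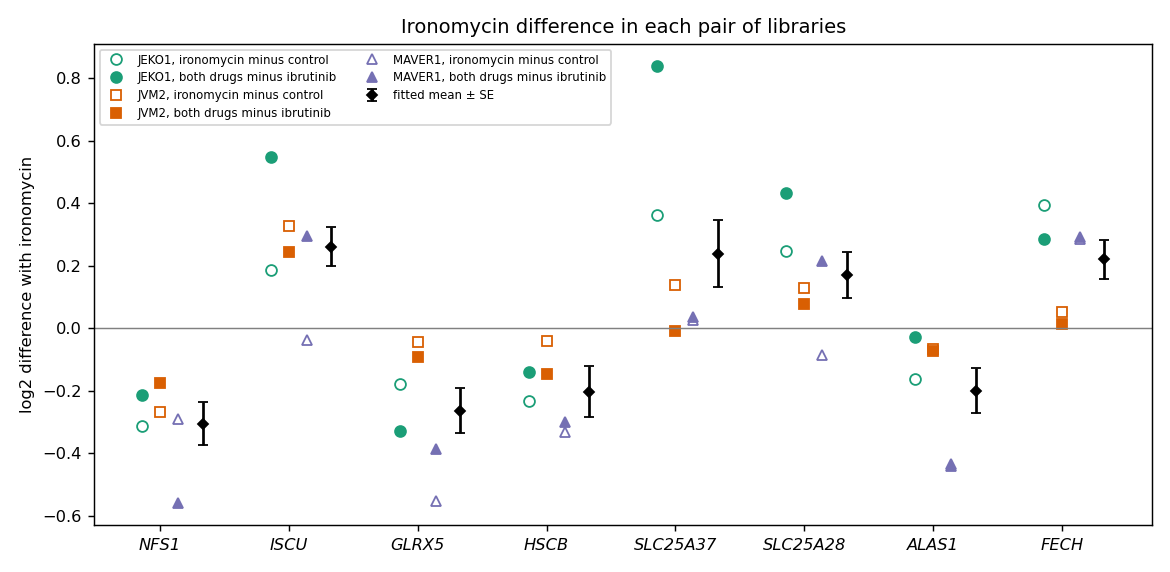
Log2 difference of each gene with ironomycin in the 6 pairs of libraries (open symbols, ironomycin minus control; filled symbols, both drugs minus ibrutinib; shape and color give the cell line), with the fitted log2 fold change and its standard error as a black diamond. NFS1, GLRX5, HSCB and ALAS1 lay below 0 in all 6 pairs and FECH above 0, while SLC25A37 reached 0.84 in JEKO1 and stayed within -0.01 to 0.14 elsewhere.

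These calls rested on the lines together. Without JEKO1 none of the 8 genes was called (adjusted p = 0.0656 to 0.206 for the 4 genes called with all lines), without MAVER1 none was (0.0652 to 0.208), and without JVM2 the 4 genes and ALAS1 were. Over all genes 1750, 509 and 6760 genes were called without JEKO1, MAVER1 and JVM2, in place of 6230. The log2 fold changes without JEKO1 were -0.33 for NFS1, -0.27 for GLRX5, 0.21 for ISCU and 0.16 for FECH, and those without MAVER1 were -0.25, -0.16, 0.33 and 0.19 in the same order. The difference of the ironomycin effect between lines was called for none of the 8 genes by edgeR's test on 2 coefficients, where 9.38% of all genes were called. The lowest adjusted p-values were those of SLC25A37 (0.0635), ALAS1 (0.0809), GLRX5 (0.0925) and FECH (0.128), and DESeq2 called ALAS1 (0.0403) and GLRX5 (0.047). Without JEKO1, the test of MAVER1 against JVM2 called these same genes, ALAS1 (0.0488) and GLRX5 (0.0402), beside 1897 genes of the whole table. The falls of ALAS1 and GLRX5 were larger in MAVER1 than in JVM2. Without JVM2 and without MAVER1 the test called 0 of the 8 genes, beside 643 and 260 genes of the whole table. These fits share libraries and are not independent of each other.

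With ironomycin alone against control, none of the 8 genes was called by edgeR, beside 0.584% of all genes. NFS1 (-0.29), GLRX5 (-0.26) and FECH (0.25) had an unadjusted p under 0.05, as did 22.5% of all genes (4198). DESeq2 called NFS1 (adjusted p = 0.017) and FECH (0.0356). The remaining log2 fold changes ran from -0.22 for ALAS1 to 0.17 for SLC25A37, with adjusted p-values from 0.123 to 0.624 over the 8 genes.

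With ibrutinib alone against control, none of the 8 genes was called and none had an unadjusted p under 0.05. Over all genes edgeR called 0%, with 680 genes (3.64%) at an unadjusted p under 0.05, and DESeq2 called 26 genes. The largest value was that of ALAS1 (-0.20, SE 0.10). FECH and ALAS1 were lower with ibrutinib in 6 of 6 pairs, counted with and without ironomycin, where 6.61% of all genes were. The differences ran from -0.17 to -0.06 for FECH and from -0.31 to -0.14 for ALAS1. No other member was lower in all 6, and none was higher in all 6, where 5.21% of all genes were.

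With both drugs against control, NFS1 and ALAS1 fell and ISCU rose. These were 3 of 8 genes (37.5%), where 28.2% of all genes were called, 14.2% higher and 14% lower. NFS1 had a log2 fold change of -0.42 (SE 0.097, adjusted p = 0.0108), and the log2 ratios of JEKO1, JVM2 and MAVER1 to their controls were -0.37, -0.41 and -0.49. This was the most even change of the 8 genes over the lines. ALAS1 had -0.38 (SE 0.10, adjusted p = 0.0187), with -0.34, -0.21 and -0.61 in the 3 lines in that order. ISCU had 0.32 (SE 0.090, adjusted p = 0.0251), with 0.46, 0.31 and 0.18, and it was not called without the filter on low counts (adjusted p = 0.065). SLC25A28 (0.29, adjusted p = 0.0562), GLRX5 (-0.27, adjusted p = 0.0695) and HSCB (-0.30, adjusted p = 0.0733) did not pass the test. FECH (0.11, adjusted p = 0.367) was higher in JEKO1 and MAVER1 and lower in JVM2 (-0.08).

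Without JEKO1 or without MAVER1 none of the 8 genes was called with both drugs (37 and 22 genes over the whole table). Without JVM2, NFS1, ALAS1 and GLRX5 were called, beside 6103 genes of the whole table, and ISCU was not (adjusted p = 0.0658). SLC25A37 had 0.27 (adjusted p = 0.2) with all lines and 0.01 without JEKO1, where its log2 ratio was 0.75. With library totals NFS1 (adjusted p = 0.055) and ALAS1 (0.0978) were not called and SLC25A28 was (0.42, adjusted p = 0.0228), and 71.6% of the calls over all genes were higher in place of 50.4%. Both drugs against ironomycin gave no call among the 8 genes and no unadjusted p under 0.05. Over all genes edgeR called 0% there, with 1970 genes (10.5%) at an unadjusted p under 0.05, and DESeq2 called 163. The values ran from -0.16 for ALAS1 to 0.20 for SLC25A28. These comparisons share control or ironomycin libraries and are not independent of each other.

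The rest of the pathway was described by lists, in the comparison averaged over ibrutinib status. In that comparison 16.3% of all genes were called lower and 17.1% higher. Of the 7 tested partners of core Fe-S assembly 4 fell and none rose, with a median log2 fold change of -0.34, while the median of all genes was 0.04. They were FDX1 (-0.43), a mitochondrial ferredoxin, GRPEL1 (-0.46), the exchange factor of HSPA9, NDUFAB1 (-0.54), the acyl carrier protein, and LYRM4 (-0.34), the small stabilizing partner of NFS1 (edgeR, adjusted p = 0.00128 to 0.0188). FDX1 stood at 56.3, 11.2 and 28.1 CPM in the controls of JEKO1, JVM2 and MAVER1, and at 47.3, 7.80 and 21.5 CPM with ironomycin alone. FDX2, the ferredoxin known for cluster assembly itself, had 0 to 6 reads per library and was not tested. The counting tool is not given, and whether so few reads reflect the level of FDX2 RNA was not tested. Averaged over the lines, NFS1 therefore fell beside its partner LYRM4, while ISCU rose. In JVM2 the mean of the pairs was -0.01 for LYRM4 and -0.22 for NFS1. Of 7 genes of late assembly 4 fell and none rose (median -0.25): NFU1 (-0.33) and BOLA3 (-0.48), which hand clusters to lipoate synthase and respiratory enzymes, ISCA2 (-0.32) and BOLA1 (-0.25). Of 12 genes of export and cytosolic assembly 5 fell and none rose (median -0.16), among them CIAPIN1 (-0.58), an electron carrier of the cytosolic machinery, GLRX3 (-0.48), CIAO2B (-0.40) and CIAO2A (-0.31).

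Among 12 genes of heme synthesis and its carriers 4 fell and 1 rose (median -0.09). The enzyme UROS (-0.41), which acts between ALAS1 and FECH, and the carrier SLC25A39 (-0.37) were among those that fell. UROS stood at 70.8, 61.3 and 97.5 CPM in the controls of JEKO1, JVM2 and MAVER1, and at 54.2, 60.1 and 64.9 CPM with ironomycin alone. ABCB6, a porphyrin transporter, rose (0.69, adjusted p = 0.0226), from low levels of 0.923 to 7.03 CPM over the libraries. The rise of FECH was thus not shared by the tested enzymes upstream of it, among which none rose. Of 8 genes of heme breakdown and transport 2 rose, the heme transporters SLC48A1 (0.45) and FLVCR1 (0.24), and 2 fell, HMOX2 (-0.34) and BLVRB (-0.29). The inducible heme oxygenase HMOX1, named here after its value was seen, had a log2 fold change of -0.0044 (SE 0.24). With ibrutinib present its pair difference was 2.26 in JEKO1, from 0.503 to 2.60 CPM, -0.22 in JVM2 and 0.05 in MAVER1. Without ibrutinib it was -0.05 in JEKO1. The means of the pairs were 1.10 in JEKO1, -0.27 in JVM2 and -0.23 in MAVER1, and the difference between lines was not called (adjusted p = 0.278).

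Of 28 proteins that carry an Fe-S cluster, 15 fell and 1 rose (median -0.21). UQCRFS1 of respiratory complex III (-0.43), the primase subunit PRIM2 (-0.45), the DNA glycosylase NTHL1 (-0.52) and CISD1 of the outer mitochondrial membrane (-0.43) had the lowest p-values. CISD2, a related protein of the endoplasmic reticulum, was the one that rose (0.27, adjusted p = 0.0171), and it was named after its value was seen. Of 16 general mitochondrial genes 13 fell and 1 rose (median -0.33), among them TOMM40 (-0.63), CLPP (-0.51), TOMM22 (-0.56) and PHB1 (-0.70). The one that rose was the protease LONP1 (0.34), named after its value was seen. The falls among Fe-S genes thus stood beside falls of mitochondrial genes that have no part in Fe-S assembly, and the part of a general change of mitochondrial RNAs was not tested.

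**Figure D4:**
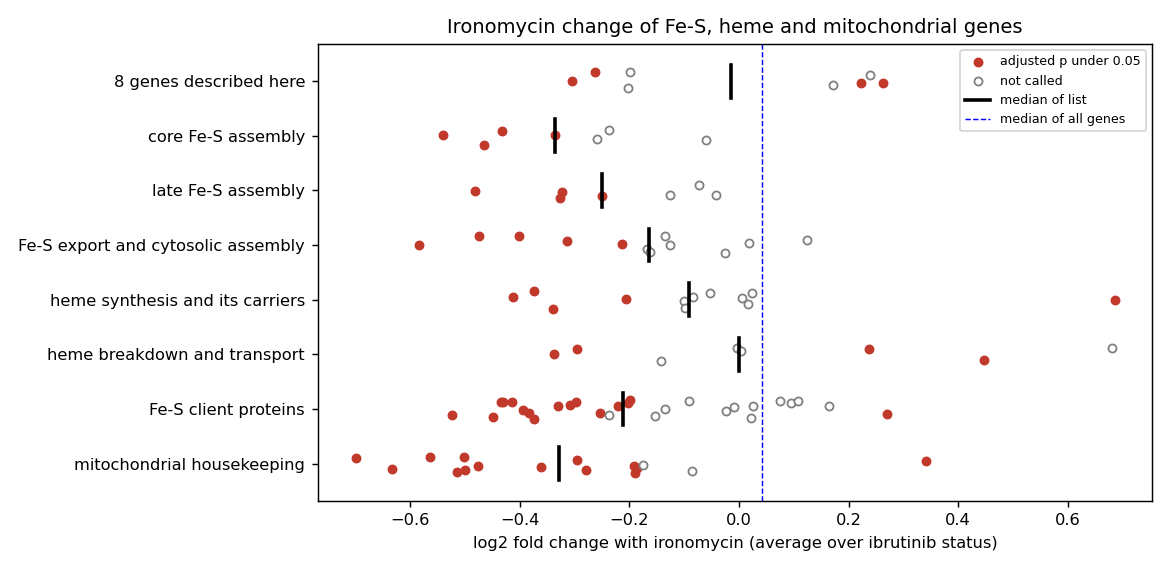
Log2 fold change with ironomycin, averaged over ibrutinib status, for the 8 genes and for 7 lists of related genes (1 point per gene; red, adjusted p under 0.05; black bars, list medians; dashed line, median of all genes at 0.04). The 8 genes lay on both sides of 0, while the medians of core assembly (-0.34) and of mitochondrial housekeeping (-0.33) lay below it.

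With both drugs against control, 14% of all genes were called lower and 14.2% higher. Of the lists, 3 of 7 core genes, 2 of 7 late genes, 6 of 12 export and cytosolic genes and 4 of 12 heme synthesis genes fell. ABCB6 was the one gene of these lists that rose (0.81, adjusted p = 0.0465). Of the Fe-S proteins 15 of 28 fell and none rose, and of the mitochondrial genes 13 of 16 fell and none rose, beside medians of -0.31 and -0.55 and a median of 0.05 over all genes. The 2 heme transporters that rose and the 2 breakdown genes that fell were called here too. By line, the median log2 ratios of the core genes to control with both drugs were -0.64 (JEKO1), -0.13 (JVM2) and -0.63 (MAVER1), with 1 library per line and no replicate check.

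The genes nearest to each member in pattern were sought among 11384 genes, by the root mean square difference of log2 CPM over the 12 libraries after centring each line. They were GTF2E2 for NFS1 (0.0387), CAPN10 for ISCU (0.0489), DDX49 for GLRX5 (0.0381), PPP2R5A for HSCB (0.0328), UBE2G2 for SLC25A37 (0.0492), DGKQ for SLC25A28 (0.0269), INPP4A for FECH (0.0401) and SLC66A2 for ALAS1 (0.0425). The members' own root mean square deviations were 0.127 to 0.195. No member was the nearest gene of another.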

How the data were processed

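Polyadenylated RNA of 3 MCL lines under 4 treatments (12 libraries) was sequenced in paired-end mode. The table the authors deposited holds counts for each Ensembl gene, unscaled. The submitters' processing notes name STAR, DESeq2 and GRCh37, without roles or versions, and the counting tool and its strand setting are not given in the sources used here. Of 63677 gene identifiers 52181 were named, and 0 columns were left unused.

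For the tests, edgeR 4.0.16 (R 4.3.3) was used with its quasi-likelihood test after TMM scaling and filterByExpr by treatment. The fit had line and treatment as terms, all 12 libraries in 1 fit and Benjamini-Hochberg adjustment over the 18674 genes tested. Genes were called at an adjusted p under 0.05. The difference between lines was tested on 2 coefficients. CPM values use a prior count of 2 on the log2 scale. The line is a block because same-numbered libraries come from the same cell line. Deviations from treatment means correlated at 0.926 to 0.976 within lines (18 pairs) and at -0.705 to -0.127 between lines (48 pairs). Centring on the mean of 3 lines itself pulls the values between lines below 0, and so these are no evidence for the block. No culture was repeated within a line. P-values of treatments rest on 1 spread, pooled over the 3 lines and 4 treatments after both terms are fitted. In the comparison averaged over ibrutinib status, the 2 pairs of libraries of a line count as separate. Its p-values thus do not measure the spread of the ironomycin effect between the 3 lines. P-values of levels or of differences between lines measure the spread between libraries of a line.

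The members, lists and motifs were chosen with earlier results of these data known. All 8 members were named in every comparison, and of each other list at most the 4 called genes with the lowest p; some list genes are not reported here. For each member, the nearest gene by pattern was named among genes whose mean log2 CPM reached 1. Exon lengths and overlaps are from GENCODE v29, and promoters from RefSeq GRCh38.p14. The windows of NFS1, GLRX5 and HSCB lie wholly in annotated untranslated exons and are not shown, that of FECH was shortened to 180 bases for this reason, and that of SLC25A37 was not used here. The treatment comparisons of edgeR had been checked on simulated data, which held no difference of a treatment effect between lines. The tests between lines and DESeq2 had not been checked in this way. DESeq2 1.42.0 was an alternative. Other scalings, the filter, the block, a fold minimum and leaving out each line were the others. Tables were handled with pandas.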

Additional observations from a re-analysis of the deposited data

Results flagged for a closer look

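None of the 8 genes was called for a difference of the ironomycin effect between the cell lines (edgeR, 2 coefficients tested together, adjustment over all genes), where 9.38% of all genes were. Of the lists, 3 of 7 core assembly genes, 2 of 12 of export and cytosolic assembly, 4 of 12 of heme synthesis, 2 of 28 Fe-S proteins and 6 of 16 mitochondrial housekeeping genes were called, and none of 7 late assembly and 8 heme breakdown genes. In core Fe-S assembly these were FDXR (adjusted p = 0.00214), the reductase that feeds the ferredoxins, NDUFAB1 (0.0339) and LYRM4 (0.0452). FDXR was lower with ironomycin in JEKO1 (-0.44 as the mean of 2 pairs) and MAVER1 (-0.78) and higher in JVM2 (0.42), so that its fold change over the lines (-0.26, adjusted p = 0.263) hides opposite directions. NDUFAB1 had -0.76, -0.12 and -0.75 in JEKO1, JVM2 and MAVER1, and LYRM4 had -0.43, -0.01 and -0.57.

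In cytosolic assembly the genes were GLRX3 (adjusted p = 0.0328), with -0.42 in JEKO1, -0.18 in JVM2 and -0.82 in MAVER1, and NUBP2 (0.0345), with -0.25, 0.13 and -0.38. In heme synthesis they were UROS (0.0184), with -0.53, -0.05 and -0.65, CPOX (0.0214), with -0.17, 0.21 and -0.32, ABCB6 (0.0311), with 1.23, 0.75 and -0.0021, and SLC25A39 (0.0341), with -0.54, -0.03 and -0.56. Among Fe-S proteins they were ACO1 (0.0111), the cytosolic aconitase that becomes an iron regulatory protein without its cluster, with -0.37, 0.40 and 0.06, and DDX11 (0.0292), with 0.15, -0.10 and 0.44. In 8 of these 11 genes JVM2 had the highest value, and both other lines were below 0. Among mitochondrial housekeeping genes they were PHB1 (adjusted p = 0.0211), TOMM22 (0.0283), VDAC2 (0.0317), CLPP (0.0335), TUFM (0.0352) and TOMM40 (0.0485), all given although the rule names 4, and all 6 were lower in each line, by the least in JVM2 (-0.31 to -0.07). The B cell marker SOX11 had an adjusted p of 0.00507, with 0.58 in JEKO1 and 1.49 in MAVER1. In JVM2 it had no reads, and so no ironomycin effect could be estimated there. Line, dose and medium cannot be told apart here.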

How the results depend on the processing

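Fold changes of the 8 genes kept their direction under the alternatives with 6 exceptions, all in comparisons without a call. With ibrutinib against control GLRX5 became -0.0198 without JEKO1 and -0.0147 without JVM2 (up to 0.0391 without MAVER1), and SLC25A28 became -0.00683 without JEKO1 (up to 0.112 without MAVER1). With both drugs against ironomycin GLRX5 became 0.0457 with library totals and 0.0381 without JEKO1 (down to -0.0595 without MAVER1), and SLC25A37 became -0.0748 without JEKO1 (up to 0.183 without JVM2). The cause was not tested. Reads were fewest for HSCB (159 to 503 per library), and counting error was not set apart from the spread between lines.

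Without the replicate block (treatment alone) the number of the 8 genes called was 0 with both drugs against control and 0 averaged over ibrutinib status, in place of 3 and 4, and 0 genes of the whole table were called in these and with ironomycin alone, since differences between lines then enter the spread. A log2 fold change of at least 1 left 0 of the 8 genes in either comparison, and 40 (ironomycin), 1175 (both drugs) and 735 (averaged) of all genes. DESeq2 called 2 of the 8 genes with ironomycin, 6 with both drugs, 6 averaged and 2 for the difference between lines, and over all genes 2362, 6282, 7012 and 2159 in these comparisons, 26 for ibrutinib and 163 for both drugs against ironomycin. Without the filter on low counts 497 (ironomycin), 10 (ibrutinib) and 26 (both drugs against ironomycin) genes were called. The ironomycin effect on 1 of the 8 genes (SLC25A37) then differed between lines, beside 2225 genes of the whole table. RLE size factors gave 5 of the 8 genes averaged, ALAS1 being added. With library totals 211 genes were called with ironomycin, 86.3% of them higher in place of 70.6%. The ironomycin effect on SLC25A37 (1 of 8) differed between lines there too, beside 1840 genes of the whole table. Library totals raised the median of all genes with both drugs from 0.0512 to 0.176, and averaged from 0.0425 to 0.128.

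Leaving out JEKO1, JVM2 or MAVER1 gave 0 to 5 of the 8 genes averaged over ibrutinib status and 0 to 3 with both drugs, 0 to 2 for the difference between lines and 4 to 7 for levels. Over all genes it gave 1 to 1636 with ironomycin, 0 to 1 with ibrutinib, 22 to 6103 with both drugs, 0 to 7 with both drugs against ironomycin, 509 to 6760 averaged, 260 to 1897 for the difference between lines and 12698 to 14468 for levels.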
